A study of Homo sapiens with 6 samples.

Results

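The ATF4 amino acid stress response was examined in Raji cells with raised IRF4. The module comprised 31 genes listed by symbol, and all 31 were found by Entrez identifier among the 23459 rows of the count table. Of these, 26 passed the filter on low counts and 5 (ATF3, NUPR1, TRIB3, VLDLR and STC2) did not. Raji is an established line from a Burkitt's lymphoma, a B cell tumour of germinal centre origin. All cells were exposed to lentivirus for 5 days and then held for 7 days in puromycin at 3 µg/ml. The vector carried human IRF4 cDNA in the IRF4-overexpressing group and no insert in the control group, and each group had 3 libraries. Both groups are therefore transduced, drug-selected pools of 1 cell line. Nothing in the labels states that the replicates were separate infections or cultures, so the p-values reflect library-to-library spread that could be purely technical.

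ATF4 is a transcription factor made mainly by selective translation. Kinases that sense amino acid shortage, misfolded protein, haem deficiency or viral RNA phosphorylate the translation initiation factor eIF2, which slows bulk protein synthesis but favours the reading of ATF4 mRNA. ATF4 pairs with C/EBP partners and switches on amino acid transporters, enzymes of asparagine, serine and proline synthesis, and feedback genes that restore translation or slow growth. Fast-growing B lymphoma cells use these transporters and enzymes to supply protein and nucleotide synthesis. ATF4 activity is set largely at the protein level, which RNA counts do not measure.

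ATF4 and its partners are known to bind a composite letter pattern, the C/EBP-ATF response element. Its core, TGATGNAA, was searched on both strands in RefSeq promoter windows of GRCh38.p14, from 250 bases before to 50 bases after each start site. Windows were found for 25 of the 31 genes. At least 1 window held the core in 8 of the 25 genes (32.0%), against 4.46% of all 27305 genes with a window. Among genes that passed the filter on low counts, it was found in 7 of 21 members (33.3%), against 2.72% of all 9502. By window, it was found in 8 of 40 (20.0%), against 3.62% of all 35116. Because the members were listed as genes of the ATF4 response, these shares are a description and not a test. The 2 members that later passed the test for a change, ASNS and CHAC1, were among the 8, and the 250 bases before their start sites are shown with the core in capitals. The ASNS sequence lies at chr7:97872409-97872658 on the minus strand and the CHAC1 sequence at chr15:40953221-40953470 on the plus strand. With the start site counted as base 1 and no base 0, the core starts at -68 in ASNS, and in CHAC1 it lies on the opposite strand with its first printed base at -209.
ASNS: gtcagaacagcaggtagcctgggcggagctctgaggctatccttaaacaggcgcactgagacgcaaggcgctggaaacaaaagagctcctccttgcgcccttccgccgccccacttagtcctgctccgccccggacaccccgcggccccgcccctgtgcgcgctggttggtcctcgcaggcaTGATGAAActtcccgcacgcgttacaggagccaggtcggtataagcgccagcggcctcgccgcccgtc
CHAC1: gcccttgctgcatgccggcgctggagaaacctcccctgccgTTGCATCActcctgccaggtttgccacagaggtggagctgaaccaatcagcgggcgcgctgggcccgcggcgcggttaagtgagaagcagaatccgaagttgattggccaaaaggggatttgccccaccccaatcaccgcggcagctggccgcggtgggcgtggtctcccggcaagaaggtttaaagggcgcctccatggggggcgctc

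The other 6 cores are printed with up to 10 bases on either side, to show how the letters differ between members. Those of CEBPG, SLC1A5 and ATF3 lie before the start site of 1 of the gene's alternative windows and begin at -42, -97 and -191. That of SLC1A4 begins at -7 and runs through the start site itself. Those of SLC7A1 and SLC3A2 begin after the start site, at base 8 and base 38. The SLC1A4 and SLC3A2 cores lie on the opposite strand. Coordinates are chr19:33374061-33374088, chr19:46784894-46784921, chr2:64989382-64989409, chr1:212565206-212565233, chr13:29595664-29595691 and chr11:62881726-62881748 in the order printed, on the minus strand for SLC1A5 and SLC7A1 and the plus strand for the others.
CEBPG: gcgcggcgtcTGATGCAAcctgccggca
SLC1A5: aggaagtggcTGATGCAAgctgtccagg
SLC1A4: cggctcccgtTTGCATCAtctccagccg
ATF3: aaggtcaggaTGATGGAAggctgtcata
SLC7A1: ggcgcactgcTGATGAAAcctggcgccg
SLC3A2: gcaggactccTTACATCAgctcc
A match is a description of letters and not a site shown to be bound. Among the 21 tested members with a window, the 7 with the core had a median log2 fold change of -0.48 (range -0.80 to -0.05). The 14 without it, among which none passed the test, had a median of -0.20 (range -0.91 to 0.19). PSAT1 and PHGDH, the most negative members, were among these 14. Of the 7, SLC3A2, SLC7A1, SLC1A5 and SLC1A4 are transporters, so the core and the role coincide in part. The other members with the core were ASNS (-0.49), CHAC1 (-0.79) and CEBPG (-0.21). The transporters SLC7A5 (-0.45) and SLC38A2 (-0.20) had a window without the core. With so few genes, the core and the role were not separated. Whether the core bears on the change was not tested.

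The libraries held 27681979 to 46210702 counts. IRF4 was at 1.25 ± 0.203 CPM (read counts scaled to the TMM-adjusted library size; SD, n = 3) in the control group, and with IRF4 cDNA it reached 132 ± 15.8 CPM (SD, n = 3). Its transgene and native transcripts were not separated. The 5 B cell markers MS4A1, CD79A, CD79B, CD22 and PAX5 had means of 90.3 to 861 CPM in either group, and the 4 T cell markers summed to at most 0.311 CPM in any library. The 4 myeloid markers CD14, LYZ, CSF1R and ITGAM summed to 1.78 to 1.93 CPM in control and 4.59 to 7.47 CPM in IRF4-overexpressing libraries. ITGAM rose from 0.652 to 2.48 CPM (log2 fold change 1.92, SE 0.17, edgeR adjusted p = 0.00256). CSF1R was at 0.427 and 2.22 CPM without overlap (log2 fold change 2.38, edgeR adjusted p = 0.0846), LYZ at 0.733 and 0.834 CPM, and CD14 at 0.0637 and 0.104 CPM. Mesenchymal markers summed to 0.598 to 1.12 and 1.57 to 4.16 CPM. Most of this was COL1A1, at 0.812 and 2.21 CPM without overlap (log2 fold change 1.46, edgeR adjusted p = 0.192). LUM was at 0.0249 and 0.314 CPM without overlap, DCN at 0.0166 and 0.00969 CPM, and COL1A2 at 0 CPM in both groups. Epithelial markers summed to 0.1 to 0.274 and 0.32 to 0.837 CPM. Of these 4, EPCAM and KRT18 were at 0 CPM in both groups, KRT8 was at 0.118 and 0.0512 CPM, and CDH1 was at 0.0431 and 0.459 CPM without overlap. The part of such cells in the module's values was not tested. In bulk RNA, fewer cells of a type and less RNA per cell cannot be told apart. Within groups the libraries differed along a shared axis that held 74.3% of the within-group variance. One side held control replicate 1 with IRF4-overexpressing replicates 2 and 3, and the opposite side held the other 3 libraries.

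ASNS and CHAC1 passed the test as lower when IRF4 was raised, and 0 of the 26 tested members passed as higher. The 5 members near silence were not tested. ASNS encodes asparagine synthetase, and CHAC1 an enzyme that degrades glutathione. The 2 falls made up 7.69% of the 26 tested members. Across all 12079 genes tested, edgeR's quasi-likelihood test called 3.16% at a Benjamini-Hochberg adjusted p under 0.05, with 0.182% lower and 2.98% higher. At an unadjusted p under 0.05, 9 members (34.6%) were lower and 0 were higher, against 8.18% and 11.3% of all genes. The groups did not overlap, with IRF4-overexpressing libraries lower, for 11 members (42.3%), against 11.9% of all genes. The reverse held for 1 member, PPP1R15A, against 13.5% of all genes. The median log2 fold change of the 26 was -0.21, against 0.01 over all genes, and 21 of the 26 were negative (80.8%), against 49.0% of all genes. No tested member's log2 fold change lay outside -0.91 to 0.20.

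In 5 of the 6 fits that left out a library, 0 members passed. Each of these 5 fits called 3 of all genes lower and 120 to 156 higher. Over the 6 fits the log2 fold change ran from -0.54 to -0.45 for ASNS and from -0.91 to -0.73 for CHAC1. The sixth fit, which omitted IRF4-overexpressing replicate 1, called 12 members lower and 2 higher (DDIT3 and EIF4EBP1), but in it 25.1% of all genes were lower and 19.9% higher, and both remaining libraries of the group share a side of the axis with control replicate 1. With DESeq2, 4 members were lower (ASNS, CHAC1, SESN2 and PHGDH), against 1.54% of all genes, and 0 were higher, against 4.29%. With a term for the library axis, 7 were lower (the same 4 with SLC7A11, SLC1A5 and SLC1A4), against 3.22% of all genes, and 0 were higher, against 5.87%. The axis was read from these counts, so p-values of that fit are too small.

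**Figure D1:**
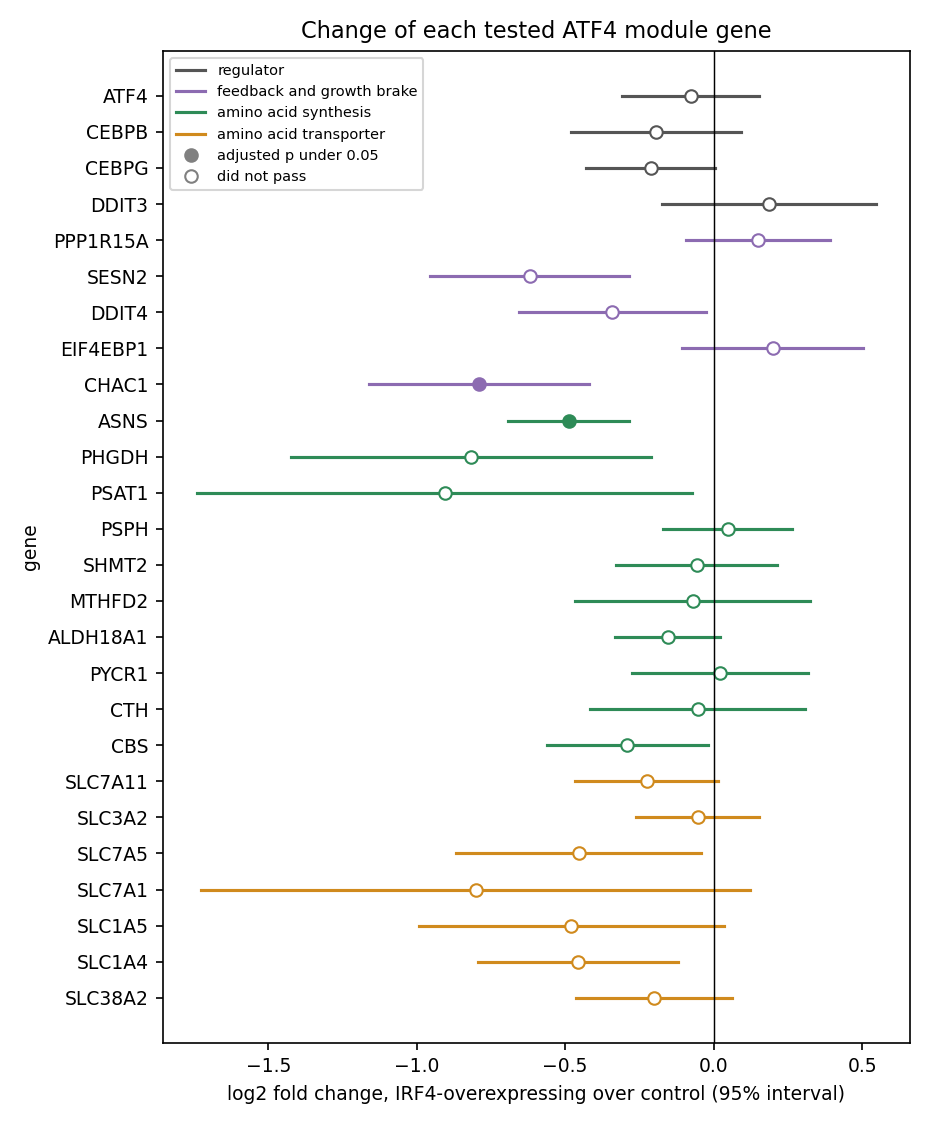
Log2 fold change of each of the 26 tested members (x axis; IRF4-overexpressing over control, edgeR, bars are 95% intervals), coloured by role. ASNS and CHAC1 have filled points because they passed the adjusted threshold; PSAT1 and SLC7A1 have the widest intervals.

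Summed over the 31 genes, the module had a mean of 4014 ± 130.3 CPM in the control group (SD, n = 3) and of 3342 ± 94.6 CPM with IRF4 raised (SD, n = 3), a ratio of 0.832. The control sums were 3872, 4127 and 4045 CPM in replicates 1, 2 and 3, and the IRF4-overexpressing sums were 3443, 3327 and 3255 CPM. Every IRF4-overexpressing library was thus below every control library. SLC7A1, PHGDH, PSAT1, SLC1A5 and SLC7A5 made up 62.9% of the difference in means, while ASNS made up 7.12% and CHAC1 0.656%. By role, summed transporters were at 1215 ± 139 CPM in control and at 916 ± 169.7 CPM with IRF4 raised, a ratio of 0.754 with overlap between the groups. Summed synthesis enzymes were at 2086 ± 33.0 and 1770.4 ± 51.1 CPM, a ratio of 0.849 without overlap. The feedback genes and growth brakes summed to 98.8 ± 8.95 and 80.4 ± 4.22 CPM, also without overlap, and the regulators to 614 ± 7.84 and 575 ± 51.7 CPM, with overlap (SD, n = 3 in each group). A lower sum was not particular to the module. Of the related lists described below, neighbouring amino acid and one-carbon enzymes summed to 0.833 of control, without overlap. Further amino acid carriers were at 0.872, cytosolic synthetases at 0.896, mTORC1 sensing genes at 0.900 and eIF2 genes at 0.919, each without overlap. Further genes known to be induced by ATF4 were at 0.981, with overlap. Abundant genes as a class were also lower. The 2029 genes that averaged 100 to 300 CPM, which include 12 members, summed to 0.925 of their control level, and 62.5% of those tested had a negative log2 fold change. The 536 genes of 300 to 1000 CPM, which include 3 members, summed to 0.912. With library sizes alone, the scaling that moves the median of all genes from 0.01 to 0.10, the module sum was at 0.889 of control and the members' median log2 fold change was -0.11. The distance between the 2 medians was close to that with TMM scaling.

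**Figure D2:**
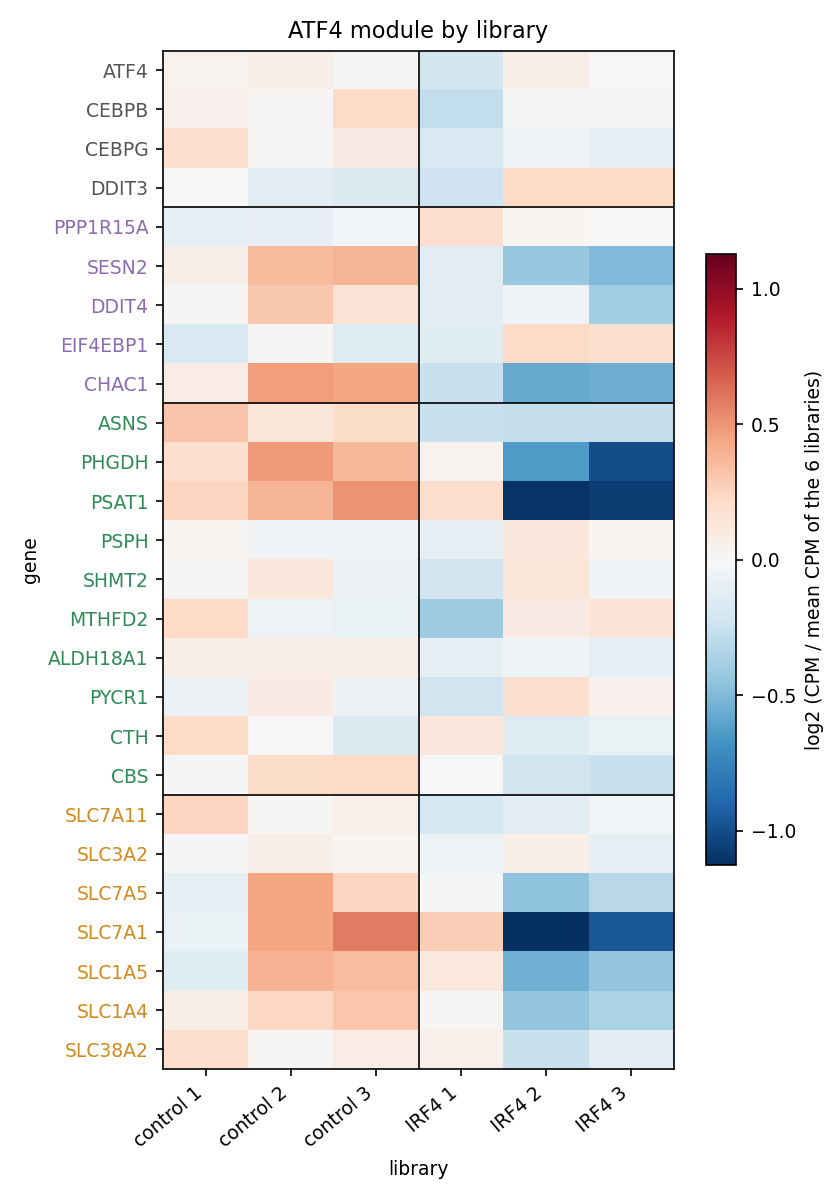
Each row is a tested member and each column a library (control 1 to 3, and IRF4 1 to 3 for the IRF4-overexpressing replicates). Colour gives log2 of the CPM over the gene's mean of the 6 libraries, red above and blue below. ASNS is alike in all 3 IRF4-overexpressing libraries, whereas PSAT1, PHGDH and SLC7A1 are lowest in replicates 2 and 3.

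Among the regulators, ATF4 mRNA itself was at 491, 501 and 482 CPM in control libraries 1, 2 and 3, and at 416, 503 and 478 CPM in those given IRF4. Replicate 1 was the lowest library and the other 5 lay close together, so the groups overlapped. Its log2 fold change was -0.08 (95% interval -0.31 to 0.15, SE 0.10, edgeR adjusted p = 0.628). RefSeq lists 4 pseudogene copies of ATF4. CEBPG, a C/EBP protein that pairs with ATF4, was at 104, 91.4 and 96.7 CPM in control and at 80.3, 86.9 and 84.7 CPM in IRF4-overexpressing libraries. These groups did not overlap, but the log2 fold change of -0.21 did not pass (95% interval -0.43 to 0.01, edgeR adjusted p = 0.263). CEBPB, an activator of stress and immune genes from the same family, was at 15.0, 14.6 and 16.8 CPM against 11.9, 14.3 and 14.3 CPM. Its groups were separated by a narrow margin (log2 fold change -0.19, 95% interval -0.48 to 0.09, edgeR adjusted p = 0.367). DDIT3, also called CHOP, promotes death under lasting stress. It was at 11.2, 10.2 and 9.98 CPM in control and at 9.53, 13.1 and 13.1 CPM in IRF4-overexpressing libraries. Replicate 1 of the latter was the lowest of all 6 and replicates 2 and 3 the highest (log2 fold change 0.19, 95% interval -0.17 to 0.55, edgeR adjusted p = 0.470). Gene models of DDIT3 and MARS1 overlap in the RefSeq table, and how shared reads were counted is not given in the sources used here, so the DDIT3 value is uncertain.

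Of the feedback genes and growth brakes, CHAC1 was at 8.74, 11.4 and 11.2 CPM in control libraries 1, 2 and 3, from 351, 307 and 409 counts. It was at 6.92, 5.56 and 5.64 CPM in those given IRF4, from 238, 206 and 272 counts. The groups did not overlap, and control replicate 1 and IRF4-overexpressing replicate 1 lay nearest each other. CHAC1 fell by 0.79 on the log2 scale (95% interval -1.16 to -0.42, SE 0.16, edgeR adjusted p = 0.0486), to 0.578 of its control level. The adjusted p was 0.0526 with median-ratio size factors, 0.0582 with library sizes alone, 0.0531 with no filter and 0.0717 with a filter of 1 CPM in 3 libraries (edgeR in each case), so the call sits at the threshold.

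SESN2, a leucine-binding protein that holds back the growth kinase complex mTORC1, was at 34.6, 42.5 and 43.2 CPM in control and at 30.3, 24.6 and 23.5 CPM in IRF4-overexpressing libraries. All 3 of the latter were below all 3 controls, with a gap of a few CPM between the 2 first replicates. Its log2 fold change was -0.62 (95% interval -0.96 to -0.28, SE 0.14, edgeR adjusted p = 0.079), and it passed with DESeq2 (adjusted p = 0.00794). DDIT4, another inhibitor of mTORC1, was at 16.7, 20.4 and 18.4 CPM in control and at 15.1, 16.0 and 12.6 CPM in IRF4-overexpressing libraries. These groups did not overlap, and the log2 fold change of -0.34 did not pass (95% interval -0.66 to -0.03, edgeR adjusted p = 0.227). PPP1R15A, also called GADD34, directs the phosphatase that reverses eIF2 phosphorylation. It was at 12.9, 13.1 and 13.7 CPM in control and at 15.9, 14.2 and 14.0 CPM in IRF4-overexpressing libraries, the reverse order of CHAC1, SESN2 and DDIT4. Its groups did not overlap, but the difference did not pass (log2 fold change 0.15, 95% interval -0.09 to 0.39, edgeR adjusted p = 0.404). EIF4EBP1, which blocks cap-dependent translation, had a log2 fold change of 0.20 (95% interval -0.11 to 0.50, edgeR adjusted p = 0.385).

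Of the 10 genes of amino acid synthesis, 1 fell and 0 rose, against 0.182% and 2.98% of all genes, and their median log2 fold change was -0.11. ASNS was at 178, 157 and 165 CPM in control libraries 1, 2 and 3 and at 119.8, 118.5 and 118.3 CPM in those given IRF4. The 3 IRF4-overexpressing libraries lay within 2 CPM of each other, clear of every control. ASNS fell by 0.49 on the log2 scale (95% interval -0.69 to -0.28, SE 0.09, edgeR adjusted p = 0.0325), to 0.713 of its control level. The adjusted p was 0.0572 with library sizes alone. RefSeq lists 5 pseudogene copies of ASNS, and how reads shared with copies were assigned is not given in the sources used here.

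Serine is made from a glycolytic intermediate in 3 steps, by PHGDH, PSAT1 and PSPH in turn. PHGDH was at 181, 221 and 204 CPM in control and at 162, 102 and 79.1 CPM in IRF4-overexpressing libraries. PSAT1 was at 169, 187 and 204 CPM in control and at 164, 66.7 and 68.4 CPM in IRF4-overexpressing libraries. In both genes, IRF4-overexpressing replicate 1 lay nearer the lowest control, while replicates 2 and 3 were far below it. The log2 fold changes of -0.82 for PHGDH (95% interval -1.42 to -0.21, SE 0.26, edgeR adjusted p = 0.166) and -0.91 for PSAT1 (95% interval -1.74 to -0.07, SE 0.35, edgeR adjusted p = 0.228) were the 2 most negative of the module and did not pass. Without single libraries the PSAT1 value ran from -1.48 (without IRF4-overexpressing replicate 1) to -0.67. PSPH, the last enzyme, showed no such pattern. It was at 118, 113 and 112 CPM in control and at 109, 126 and 118 CPM in IRF4-overexpressing libraries, which overlap (log2 fold change 0.05, 95% interval -0.17 to 0.27, edgeR adjusted p = 0.764). Per length, the ratio of PSAT1 to PSPH was 2.14, 2.47 and 2.71 in control replicates 1, 2 and 3, and 2.24, 0.786 and 0.862 in the IRF4-overexpressing ones. The pathway's first enzymes and its last one thus parted in 2 of the 3 libraries. PSAT1 has 4 pseudogene copies in the RefSeq table and PSPH has 1.

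**Figure D3:**
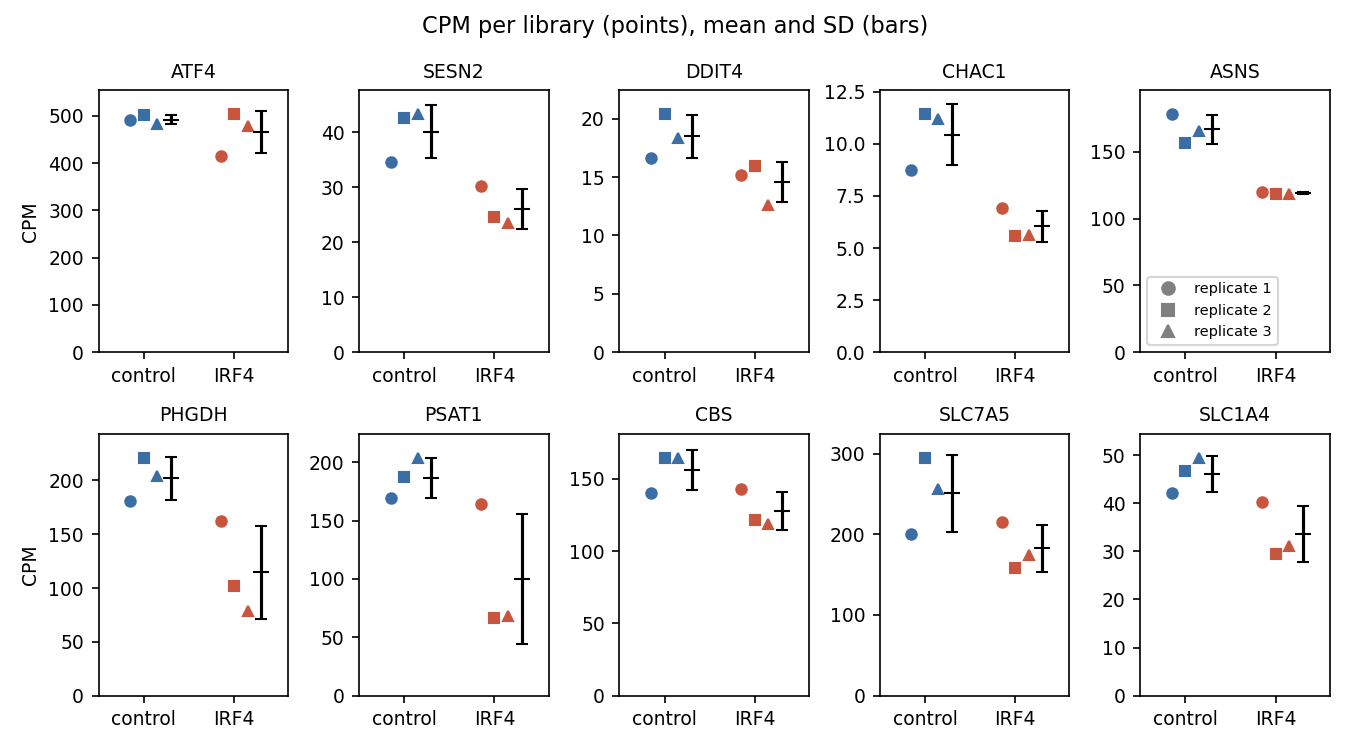
CPM in each library (y axis, from 0) for ATF4 and the 9 members with an unadjusted p under 0.05. Blue points are control and red points are IRF4-overexpressing libraries, labelled IRF4; shapes give the replicate number, and black bars the mean and SD of 3 libraries. The groups overlap for ATF4, CBS and SLC7A5.

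SHMT2 and MTHFD2 carry serine carbon into the mitochondrial folate cycle. Their log2 fold changes were -0.06 (95% interval -0.33 to 0.21) and -0.07 (95% interval -0.47 to 0.33). MTHFD2 was at 567, 467 and 461 CPM in control and at 367, 519 and 536 CPM in IRF4-overexpressing libraries. Control replicate 1 and IRF4-overexpressing replicates 2 and 3 were its 3 highest libraries, which are one side of the library axis. RefSeq lists 7 pseudogene copies of MTHFD2, and its gene model overlaps that of SLC4A5, so its value is uncertain. In proline synthesis, ALDH18A1, the entry enzyme, was at 349, 349.7 and 348 CPM in control and at 311, 321 and 308 CPM in IRF4-overexpressing libraries. The difference was small and uniform, without overlap (log2 fold change -0.15, 95% interval -0.33 to 0.02, edgeR adjusted p = 0.293). PYCR1, the last enzyme, had a log2 fold change of 0.02 (95% interval -0.27 to 0.32). In the route from homocysteine to cysteine, CBS was at 140.2, 164 and 165 CPM in control and at 143, 121 and 119.0 CPM in IRF4-overexpressing libraries. The groups overlapped because replicate 1 of the IRF4-overexpressing group exceeded control replicate 1 (log2 fold change -0.29, 95% interval -0.56 to -0.02, edgeR adjusted p = 0.232). CTH, the next enzyme, was low at 2.95 to 3.83 CPM and had a log2 fold change of -0.05 (95% interval -0.41 to 0.31).

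All 7 amino acid transporters had negative log2 fold changes, with a median of -0.45, and 0 passed the test by edgeR, limma-voom or DESeq2. At an unadjusted p under 0.05, 2 of the 7 were lower, against 8.18% of all genes. SLC7A5, the light chain of the large neutral amino acid exchanger LAT1, was at 201, 295 and 256 CPM in control and at 215, 159 and 175 CPM in IRF4-overexpressing libraries. Control replicate 1 was below IRF4-overexpressing replicate 1, so the groups overlapped (log2 fold change -0.45, 95% interval -0.87 to -0.04, edgeR adjusted p = 0.223). Its 2 pseudogene copies in the table had 2274 counts, against 47057 for SLC7A5. SLC3A2, the heavy chain that carries SLC7A5 or SLC7A11 to the membrane, was at 167, 175 and 171 CPM in control and at 161, 177 and 156 CPM in IRF4-overexpressing libraries. It overlapped between groups, and its log2 fold change was -0.05 (95% interval -0.26 to 0.15, edgeR adjusted p = 0.707). SLC7A11, which imports cystine, was at 116, 99.2 and 103 CPM in control and at 85.7, 90.0 and 96.1 CPM in IRF4-overexpressing libraries. These groups did not overlap (log2 fold change -0.23, 95% interval -0.47 to 0.02, edgeR adjusted p = 0.273). The ratio of SLC7A5 to SLC3A2 per length was 0.694, 0.969 and 0.863 in control and 0.77, 0.517 and 0.645 in IRF4-overexpressing libraries, with overlap.

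SLC1A5 and SLC1A4 exchange small neutral amino acids, glutamine and serine among them. SLC1A4 was at 42.1, 46.8 and 49.5 CPM in control and at 40.2, 29.4 and 31.2 CPM in IRF4-overexpressing libraries. Its groups did not overlap (log2 fold change -0.46, 95% interval -0.79 to -0.12, SE 0.14, edgeR adjusted p = 0.164). SLC1A5 was at 212, 305 and 295 CPM in control and at 252, 159 and 171 CPM in IRF4-overexpressing libraries. Here replicate 1 of the IRF4-overexpressing group lay between the controls (log2 fold change -0.48, 95% interval -0.99 to 0.03, edgeR adjusted p = 0.274). SLC7A1, the main importer of arginine and lysine, was at 184, 263 and 290.2 CPM in control and at 235, 88.5 and 99.3 CPM in IRF4-overexpressing libraries. It had the largest SE of the 26 members, 0.39, with a log2 fold change of -0.80 (95% interval -1.73 to 0.12, edgeR adjusted p = 0.297). SLC38A2, a sodium-coupled glutamine carrier, had a log2 fold change of -0.20 (95% interval -0.46 to 0.06).

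The 5 members that did not pass the filter were close to silent. ATF3, a repressor induced early in stress, had 0 counts in all 3 control libraries and 4, 5 and 6 counts in IRF4-overexpressing replicates 1, 2 and 3. Taking 3 counts in the summed control libraries as the floor, its pooled CPM with IRF4 raised was 4.33 times that floor. This ratio leaves out the counting error of its 15 counts and the spread between libraries, so it is not a lower bound. NUPR1, a stress-induced chromatin protein, had 0 control counts against 3, 1 and 1, or 1.44 times the same floor. With so few counts, a difference in NUPR1 was not established. TRIB3, a pseudokinase that restrains ATF4, had 1 count in 6 libraries. STC2, a secreted glycoprotein, had 3 counts, all in IRF4-overexpressing libraries. VLDLR, a lipoprotein receptor, had 3 control counts against 2. These last 3 genes were at or under the floor in both groups, and a difference was not detectable at this depth.

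Compared per length, as CPM per kilobase of the deposited gene width, ATF4 and MTHFD2 had the highest control levels. ATF4 was at 231 ± 4.48 and MTHFD2 at 218 ± 26.1 CPM per kb (SD, n = 3 each), which do not differ beyond their spread. ALDH18A1 and SHMT2 followed at 100.7 ± 0.303 and 97.3 ± 6.63, also within their spread. PSAT1, SLC1A5, ASNS and SLC3A2 had control levels of 65.3 to 85.3 CPM per kb. CHAC1 was among the lowest at 6.70 ± 0.952, above PPP1R15A at 5.55 ± 0.168 and CTH at 1.53 ± 0.201 CPM per kb. ATF4 and MTHFD2 also had the highest levels per length with IRF4 raised, at 219 ± 21.2 and 208 ± 40.7. PSAT1 went from 85.3 ± 7.87 to 45.6 ± 25.4 CPM per kb, close to the ASNS level of 47.1 ± 0.317 but with a far wider spread.

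**Figure D4:**
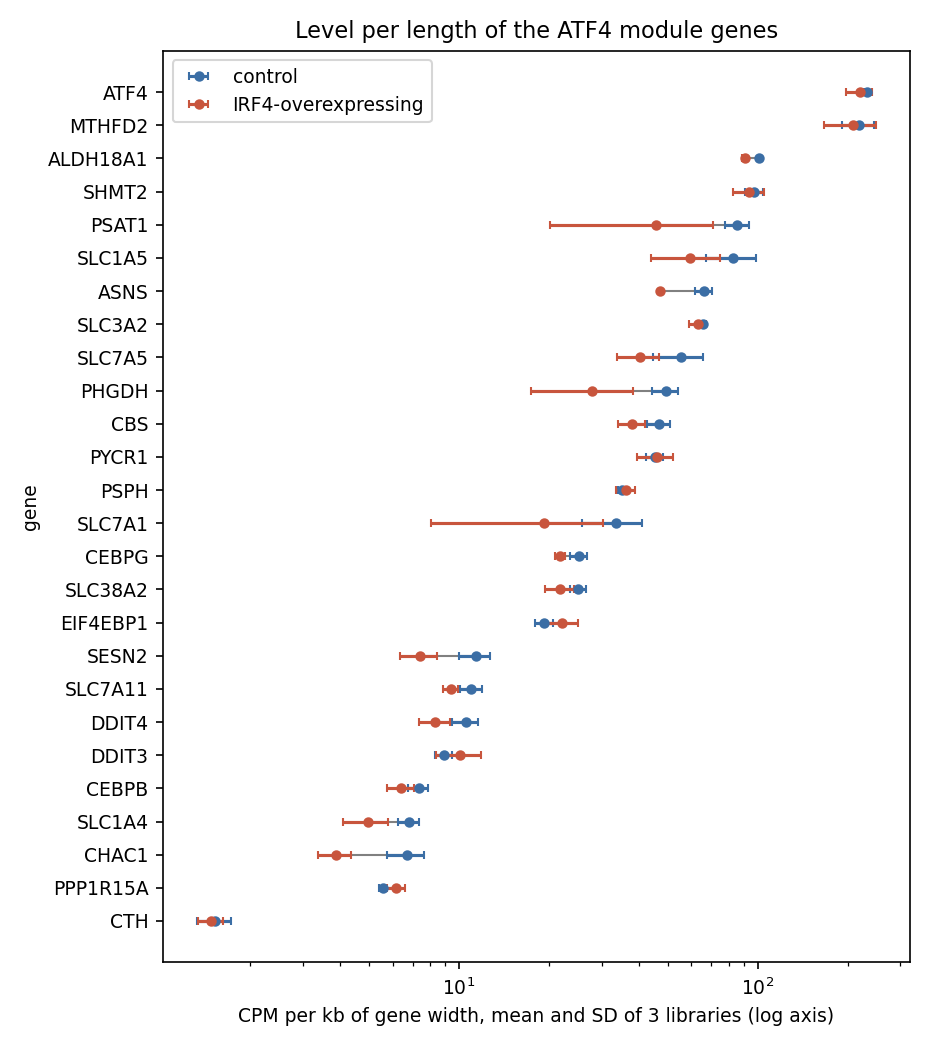
Level of each tested member as CPM per kb of gene width (x axis, log scale), ordered by the control mean; points are means and bars SDs of 3 libraries. ATF4 and MTHFD2 are at the top in both groups, and ASNS is displaced without widening of its bar.

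Comparisons within each side of the library axis showed which members had a similar difference on both sides and which did not. On one side, IRF4-overexpressing replicates 2 and 3 were set against control replicate 1, and on the other, IRF4-overexpressing replicate 1 against control replicates 2 and 3. These log2 ratios of mean CPM are values with no test, since each side has a lone library in 1 group. The ratios were -0.64 and -0.71 for CHAC1, -0.59 and -0.43 for ASNS, and -0.53 and -0.50 for SESN2. For these 3 genes the sides gave similar values. They were -1.33 and -0.25 for PSAT1, -0.997 and -0.39 for PHGDH, and -0.97 and -0.24 for SLC7A1. For these the ratio on the first side was far more negative. Similar ratios do not mean that a gene was level along the axis. CHAC1 was higher on the second side by 0.37 log2 CPM in control and by 0.30 in IRF4-overexpressing libraries. For PSAT1 these values were 0.20 and 1.28. SLC1A4 had ratios of -0.47 and -0.26, SLC1A5 of -0.36 and -0.25, and SLC7A5 of -0.27 and -0.36. EIF4EBP1 (0.38 and -0.07), DDIT3 (0.22 and -0.08), PYCR1 (0.18 and -0.24), SHMT2 (0.04 and -0.24), PSPH (0.06 and -0.04), SLC38A2 (-0.38 and 0.01) and CTH (-0.32 and 0.20) differed in sign between the sides. Of the 26 members, 18 were lower on both sides (69.2%) and 1, PPP1R15A, was higher on both. The 18 include ATF4 (-0.00062 and -0.24) and SLC3A2 (-0.00046 and -0.11), which were in effect level on the first side. Of all genes tested, 34.4% were lower on both sides and 29.2% higher on both. The members' median was -0.24 on each side, against 0.01 and -0.03 for all genes.

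**Figure D5:**
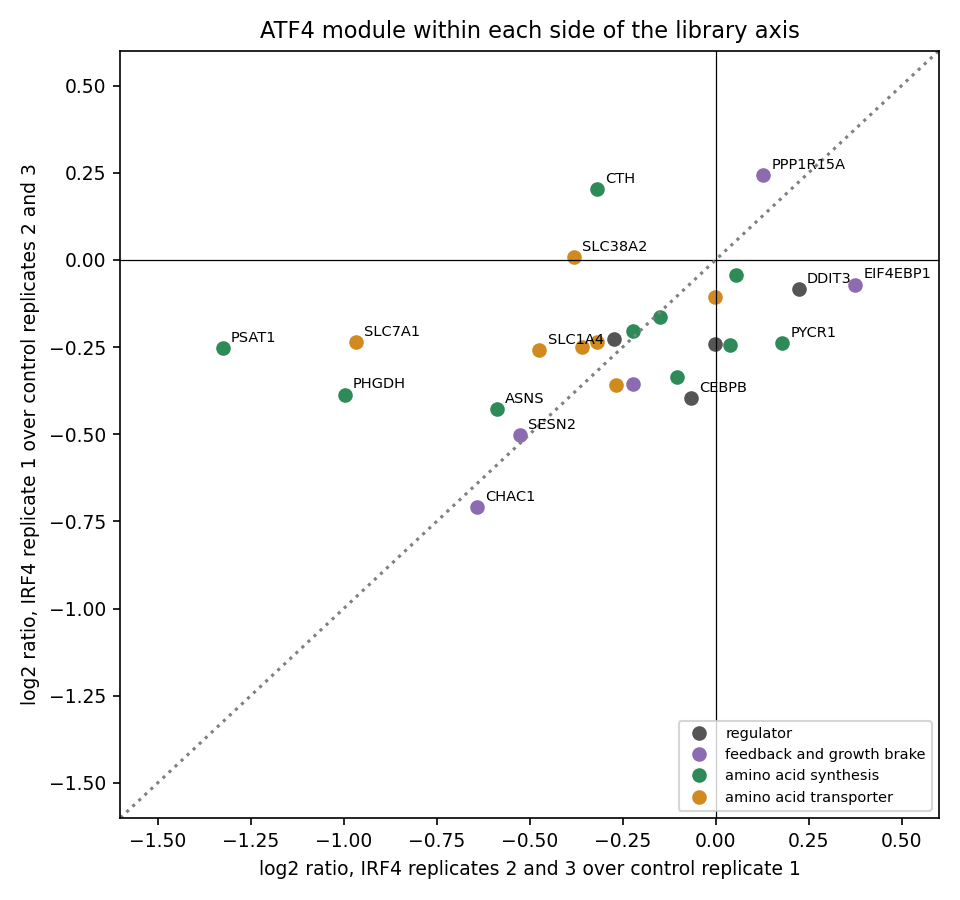
Each point is a tested member, coloured by role, with its log2 ratio on the side that holds control replicate 1 (x axis) and on the other side (y axis); IRF4 stands for IRF4-overexpressing, and the dotted line marks equal ratios. CHAC1, SESN2 and ASNS lie near the line, while PSAT1, PHGDH and SLC7A1 lie far to the left of it.

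Genes around the module were described with the same fit, from 6 lists of the pathway. Of all genes tested, 0.182% were called lower and 2.98% higher, so few calls are to be looked for in short lists. Of 17 tested eIF2 kinases, eIF2 subunits and regulators, 0 passed, and the median was -0.11. At an unadjusted p under 0.05, 2 of the 17 were lower, against 8.18% of all genes. These were the exchange factor subunits EIF2B2 and EIF2B4, with log2 fold changes of -0.31 and -0.58. The 4 kinases had log2 fold changes of -0.53 for EIF2AK1, 0.35 for EIF2AK2, 0.14 for EIF2AK3 and -0.11 for EIF2AK4, with edgeR adjusted p of 0.312, 0.355, 0.478 and 0.606. EIF2AK2 is PKR, the kinase that senses viral RNA and is known to be induced by interferon. Of 11 tested further genes known to be induced by ATF4, 0 passed and 2 were lower at an unadjusted p under 0.05, against 8.18% of all genes. Their signs were nearly even, with 6 negative and 5 positive (54.5% negative, against 49.0% of all genes), and their summed CPM was at 0.981 of control, although the median was -0.26. GPT2, an alanine aminotransferase, and HERPUD1, which serves protein disposal at the endoplasmic reticulum, had the smallest p, with -0.33 and -0.26 (edgeR adjusted p = 0.119 and 0.228).

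Of 12 cytosolic aminoacyl-tRNA synthetases, which load amino acids onto tRNA, 0 passed, and the median was -0.14. At an unadjusted p under 0.05, 2 of the 12 were lower, against 8.18% of all genes. GARS1 and YARS1 had the smallest p, with log2 fold changes of -0.38 and -0.47 (edgeR adjusted p = 0.0781 and 0.189). Of 18 tested neighbouring enzymes of amino acid and one-carbon metabolism, 0 passed, with a median of -0.13. At an unadjusted p under 0.05, 5 of the 18 were lower, against 8.18% of all genes. AHCY, which clears S-adenosylhomocysteine, and GOT1, an aspartate aminotransferase, had -0.35 and -0.32 (edgeR adjusted p = 0.119 and 0.124). Of 10 tested further amino acid carriers 0 passed and 0 were lower at an unadjusted p under 0.05, against 8.18% of all genes. Their median was -0.20, with values of -0.22 for SLC38A1 and -0.18 for SLC1A1 (edgeR adjusted p = 0.259 and 0.314). Of 24 genes of amino acid sensing by mTORC1, 1 rose and 0 fell, with a median of -0.16, where 2.98% of all genes were called higher and 0.182% lower. At an unadjusted p under 0.05, 4 of the 24 were lower and 2 higher, against 8.18% and 11.3% of all genes. The 1 was RRAGB, a GTPase that recruits mTORC1 to lysosomes, from 4.66 to 7.21 CPM (log2 fold change 0.63, SE 0.12, edgeR adjusted p = 0.0475). SESN1, a relative of SESN2 known as a p53 target, was at 43.4 and 65.6 CPM and did not pass (log2 fold change 0.60, edgeR adjusted p = 0.0923). Its sign was opposite to that of SESN2. Groups without overlap, IRF4-overexpressing lower, were seen for 6 of 12 synthetases, 6 of 17 genes of the eIF2 list and 6 of 18 neighbouring enzymes. They were seen for 3 of 11 further ATF4-induced genes, 4 of 24 mTORC1 genes and 2 of 10 further carriers. The module had 11 of 26 (42.3%), against 11.9% of all genes. The share of negative log2 fold changes was 64.7% in the eIF2 list, 66.7% among the synthetases and among the neighbouring enzymes, 80.0% among the further carriers and 62.5% in the mTORC1 list, against 80.8% in the module and 49.0% of all genes.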

How the data were processed

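RNA-seq read counts per gene were deposited by the authors as raw counts, 1 column per library, for 3 control and 3 IRF4-overexpressing libraries. A further deposited column gives gene width in bases. Per the submitters' processing notes, the builds were mm9 and hg19. The aligner, counter, annotation and strand setting are not given in the sources used here. Symbols were matched by Entrez identifier for 23308 of 23459 rows (RefSeq, GRCh38.p14). Columns called WT were taken as the empty-vector controls of the same number.

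The comparison used edgeR 4.0.16 under R 4.3.3, with TMM scaling, filterByExpr, group-only design and two-sided quasi-likelihood test over 12079 genes, with Benjamini-Hochberg adjustment. SE is the absolute log2 fold change over the square root of F, and intervals are at the 95% level. The code was tested on simulated data. Alternatives were other scalings and filters, DESeq2 1.42.0, limma-voom (limma 3.58.1), a replicate block and leaving out each library. The axis term and within-side ratios were added after seeing the data. Members, lists and tests were chosen with earlier results of these data known. Every member is named; full values are given for ATF4, members with an unadjusted p under 0.05 and at most 10 more, and for other lists the calls or the 2 smallest p. Figures used matplotlib 3.10.9.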

Additional observations from a re-analysis of the deposited data

How the results depend on the processing

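Direction was kept by 21 of 26 tested members with library sizes alone and by 25 with DESeq2 or the axis term, and by all 26 with limma-voom, median-ratio size factors, either other filter and the replicate block. Signs that turned were all close to 0 and uncalled. With library sizes alone, ATF4 had a log2 fold change of 0.018, SHMT2 0.038, MTHFD2 0.026, CTH 0.041 and SLC3A2 0.041. PYCR1 was at -0.0015 with DESeq2 and -0.029 with the axis term. Without single libraries, PSPH ran from -0.00069 to 0.089, SHMT2 from -0.14 to 0.013, MTHFD2 from -0.17 to 0.073, PYCR1 from -0.066 to 0.115 and CTH from -0.14 to 0.048. Members called lower numbered 1 with median-ratio size factors, no filter or the 1 CPM filter, 0 with library sizes alone, 4 with DESeq2 and 7 with the axis term. Over all genes, 571 were higher and 205 lower with DESeq2, 709 and 389 with the axis term, and 13 lower with library sizes alone, against 360 and 22. Without single libraries, 120 to 2436 genes were higher and 3 to 3071 lower, and 0 to 2 members were higher and 0 to 12 lower. The highest of each of these 4 counts came without IRF4-overexpressing replicate 1. With the replicate block, 3 genes were higher, 0 lower and 0 members lower (ASNS and CHAC1 had log2 fold changes of -0.49 and -0.79, with edgeR adjusted p of 0.288 and 0.340). Deviations of same-numbered libraries correlated at -0.649, -0.219 and -0.467, so the numbers were not taken as pairs. No replicate pair agreed within sampling noise (chi-square per gene 6.49 or more). Depth limited the 5 members near silence.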
